A study of Mus musculus with 4 samples.

Results

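Heart RNA of 4 mice aged 8 weeks was examined for 10 genes that mark macrophages and other immune cells, *Ptprc*, *Csf1r*, *Cd68*, *Adgre1*, *Mrc1*, *Lyz2*, *C1qa*, *C1qb*, *C1qc* and *Cd74*. They were taken by symbol from the 55401 gene rows of the deposited expression table, and all 10 were found, each as 1 row. Of the mice, 2 were wild-type and 2 were *Ctcf* heterozygous, with 1 library per mouse and replicates 1 and 2 in each genotype. The heterozygous mice carried the CTCF-R567W substitution, made by CRISPR/Cas9 editing, on one *Ctcf* allele, so that every cell type of the heart carried it, immune cells included. All mice were kept under specific pathogen-free conditions with free access to food and water. The strain was C57BL/6N, and the sex of the mice is not given in the sources used here. The comparison asks whether the immune cell content of the bulk heart samples differed between single hearts or between genotypes.

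Macrophages are the main resident leukocytes of the healthy adult mouse heart, where they take up debris and dying cells and lie close to vessels and muscle cells. Their survival depends on the colony stimulating factor 1 receptor, and they carry scavenger and lectin receptors, make lysozyme and the complement subcomponent C1q, and some present antigen on MHC class II. All leukocytes carry the phosphatase CD45, the product of *Ptprc*. In a bulk heart sample, fewer cells of a type and less RNA of a gene per cell cannot be told apart.

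The values are TPM (a transcript level corrected for gene length, with a fixed total in every library), so that levels of different genes can be set side by side, but they keep no read depth, and counting error is unknown. Mitochondrially encoded (mt-) genes took between 61.1% and 68.6% of the TPM of a heart, and 11 nearly identical nuclear copies took another 14.1% to 19.8%. All other genes shared 21.2% and 24.0% of the TPM of wild-type against 14.2% and 17.6% of heterozygous libraries (replicate 1 first, here and throughout). Values were therefore divided by median-of-ratios factors of 1.08, 1.27, 0.821 and 0.910, and are called scaled TPM. Differences are log2 fold changes of scaled TPM + 1, heterozygous over wild-type, which understate the change of low genes. They come from limma fitted to the 10036 genes with a mean of at least 1 TPM, two-sided, with Benjamini-Hochberg adjustment over these genes. Calls needed a fold change over 1.5 beside an adjusted p below 0.05. Among all tested genes 3 were called lower (0.0299%) and 0 higher, with 610 lower (6.08%) and 624 higher (6.22%) at an unadjusted p under 0.05. The 3 genes called lower, named after their values were seen, were *Gm8186*, *Gm14325* and a second gene model of *Zc3h11a*. With 2 mice per genotype, the spread of a gene within these 2 pairs of mice is uncertain. By limma it is drawn toward that of tested genes of similar level, with a weight of 4.76 degrees of freedom. A p-value rests on both.

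The heart label held up in all 4 samples, since *Myh6*, the main myosin heavy chain of the adult mouse heart, stood between 9096 and 10473 scaled TPM. The 10 immune markers were above 0 in every heart, at far lower levels, from 0.256 scaled TPM for *Adgre1* in heterozygous replicate 1 to 19.5 for *Lyz2* in wild-type replicate 2.

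The promoters of the marker genes are shown first because macrophage genes are classically bound near their start by PU.1, the product of *Spi1*, an ETS family factor that recognises purine-rich DNA around GGAA. RefSeq (GRCm38.p6, the assembly of mm10) gave a promoter of 300 bases, 250 before and 50 after the start, for 6 of the 10 genes, *Ptprc*, *Cd68*, *Mrc1*, *Lyz2*, *C1qb* and *C1qc*. *Csf1r*, *Adgre1*, *C1qa* and *Cd74* had no entry in this table. The letters AGGAAGT, an ETS-type core chosen after these promoters were read, were searched on both strands, where the other strand reads ACTTCCT. They stood in the promoters of 5 of the 6 genes, all but *Cd68*, and in those of 10.7% of the 27025 genes with an entry. Windows of 30 bases follow, written 5′ to 3′ on the strand of the gene, all on the minus strand but *Mrc1*, with the searched letters in capitals. Since the letters were chosen after these promoters were read, their share among all genes is no test of an enrichment. The match describes these letters only.
*Ptprc*, chr1:138175400-138175429: tacttgaattaAGGAAGTaagaagccattg
*Mrc1*, chr2:14229192-14229221: cacttctccccACTTCCTgcgttttctcct
*Lyz2*, chr10:117282354-117282383: gatcggtaggaACTTCCTgttttgcacaca
*C1qb*, chr4:136886235-136886264: caggacctgaaACTTCCTgagggcagcagg
*C1qc*, chr4:136893091-136893120: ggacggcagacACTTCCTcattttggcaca

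*Spi1* itself stood at 0.508 and 0.300 scaled TPM in wild-type against 0.560 and 0.483 in heterozygous hearts, under the level required for a test.

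None of the 9 markers that could be tested was called in either direction by limma, and *C1qc* alone had an unadjusted p under 0.05, in the lower direction, in which 6.08% of all tested genes had one (6.22% in the higher). The heterozygous hearts were both below the wild-type hearts for 2 of the 9, *Lyz2* and *C1qc*, and above them for 0. Over all tested genes the genotypes did not overlap in this way for 24% in the lower and 23% in the higher direction, and for 47% in either, so that the share of the markers was near the background in the lower direction only. The median log2 fold change of the 9 genes was -0.03, and that of all tested genes was -0.01. This median moved with the scaling. With TPM as deposited it was -0.36, at a median of -0.35 for all tested genes, and 6 of the 9 tested markers then lay lower in both heterozygous hearts and 0 higher, against 67.8% and 2.32% of all tested genes. With mt- genes and their nuclear copies removed it was 0.02, at a median of 0.05 for all tested genes.

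**Figure D1:**
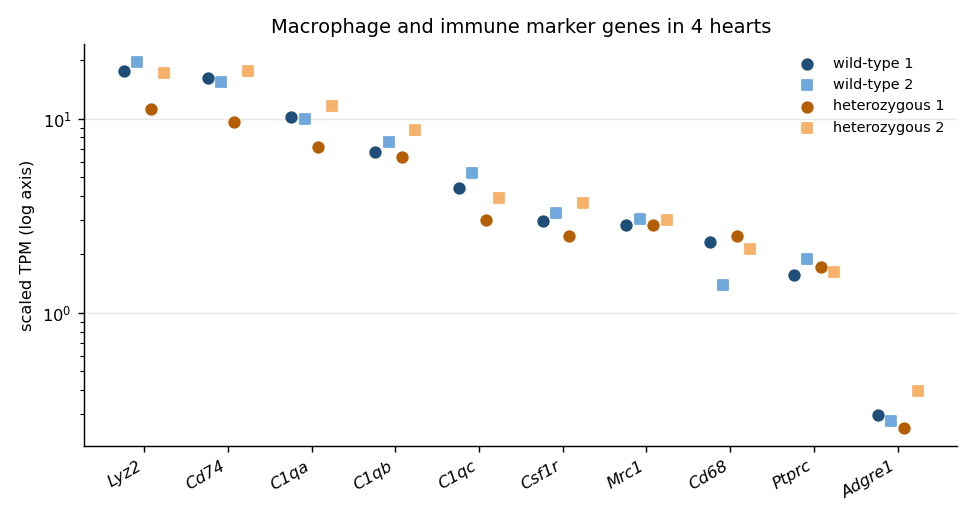
Scaled TPM of the 10 marker genes on a log axis, ordered by their mean over the 4 hearts, with 1 point per heart (circles, replicate 1; squares, replicate 2; blue, wild-type; orange, heterozygous). For *Lyz2*, *Cd74* and *C1qa* the point of heterozygous replicate 1 lies under the other 3, whereas for *Mrc1* and *Ptprc* the 4 hearts lie close together.

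The markers of all leukocytes and of the macrophage lineage overlapped between the genotypes. *Ptprc* (chromosome 1, 138062861 to 138175708), which encodes CD45, had 1.56 and 1.89 scaled TPM in wild-type against 1.72 and 1.61 in heterozygous hearts. Both heterozygous values lay between the wild-type values, with a log2 fold change of -0.03 (SE 0.14, 95% interval -0.36 to 0.30, limma adjusted p = 0.941). *Csf1r* (chromosome 18, 61100598 to 61132149), the receptor of the growth factors CSF1 and IL-34, had 2.98 and 3.27 scaled TPM against 2.47 and 3.69. Its lowest and its highest heart were both heterozygous, and the log2 fold change was -0.03 (SE 0.18, 95% interval -0.45 to 0.39, limma adjusted p = 0.953). Exons of *Csf1r* overlap those of *Hmgxb3* on the opposite strand over 873 bases, and how the counting used strand is not given in the sources used here, so the division of reads between both genes is uncertain. *Hmgxb3* had 7.28, 7.75, 6.44 and 4.75 TPM as deposited.

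The surface and lysosomal markers of macrophages did not separate the genotypes either. *Adgre1* (chromosome 17, 57358691 to 57483527), which encodes the mouse macrophage antigen F4/80, was the lowest of the 10, with 0.296 and 0.276 scaled TPM in wild-type against 0.256 and 0.395 in heterozygous hearts. At this level it did not pass the filter and has no test. *Mrc1* (chromosome 2, 14229392 to 14332057), which encodes the mannose receptor CD206 of resident macrophages, had 2.83 and 3.05 scaled TPM against 2.81 and 3.01. This was the smallest spread over the 4 hearts among the 10 in relation to its level, with a log2 fold change of -0.01 (SE 0.13, 95% interval -0.33 to 0.31, limma adjusted p = 0.981). *Cd68* (chromosome 11, 69664213 to 69666153), which encodes a lysosomal glycoprotein of phagocytes, had 2.32 and 1.40 scaled TPM against 2.47 and 2.13. Wild-type replicate 2 was its low heart, and the log2 fold change was 0.23 (SE 0.19, 95% interval -0.22 to 0.67, limma adjusted p = 0.628), which became -0.06 with TPM as deposited.

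*Lyz2* (chromosome 10, 117277331 to 117282321), the lysozyme gene of macrophages, monocytes and neutrophils, was the highest of the 10 on average. It had 17.5 and 19.5 scaled TPM in wild-type against 11.1 and 17.2 in heterozygous hearts. The genotypes did not overlap, but heterozygous replicate 2 lay just under wild-type replicate 1, and the log2 fold change was -0.39 (SE 0.22, 95% interval -0.92 to 0.14, limma adjusted p = 0.490). Without heterozygous replicate 1 it was -0.10. Transcripts of *Lyz2* and its neighbour *Lyz1* are 95.8% identical over 1264 bases, which makes the division of reads between them uncertain, and *Lyz1* was listed between 0.158 and 0.458 scaled TPM.

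The 3 genes of C1q, the recognition subcomponent of the classical complement pathway, lie side by side on chromosome 4, *C1qb* at 136880129 to 136886187, *C1qc* at 136889804 to 136893065 and *C1qa* at 136895917 to 136898803, all on the minus strand. Their products are the B, C and A chains, which are built into C1q in equal numbers. *C1qa* had 10.2 and 9.97 scaled TPM in wild-type against 7.16 and 11.7 in heterozygous hearts. The wild-type hearts lay between the heterozygous hearts, and the log2 fold change was -0.12 (SE 0.22, 95% interval -0.66 to 0.41, limma adjusted p = 0.841). *C1qb* had 6.76 and 7.60 scaled TPM against 6.34 and 8.69, again with the wild-type hearts in between. Its log2 fold change was 0.05 (SE 0.18, 95% interval -0.38 to 0.48, limma adjusted p = 0.931), and it was -0.34 with TPM as deposited. *C1qc* had 4.42 and 5.25 scaled TPM against 3.00 and 3.89. Both heterozygous hearts were lower than both wild-type hearts, with a log2 fold change of -0.40 (SE 0.16, 95% interval -0.78 to -0.01, unadjusted p = 0.0467, limma adjusted p = 0.400). It was -0.26 without heterozygous replicate 1 and -0.55 without heterozygous replicate 2.

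**Figure D2:**
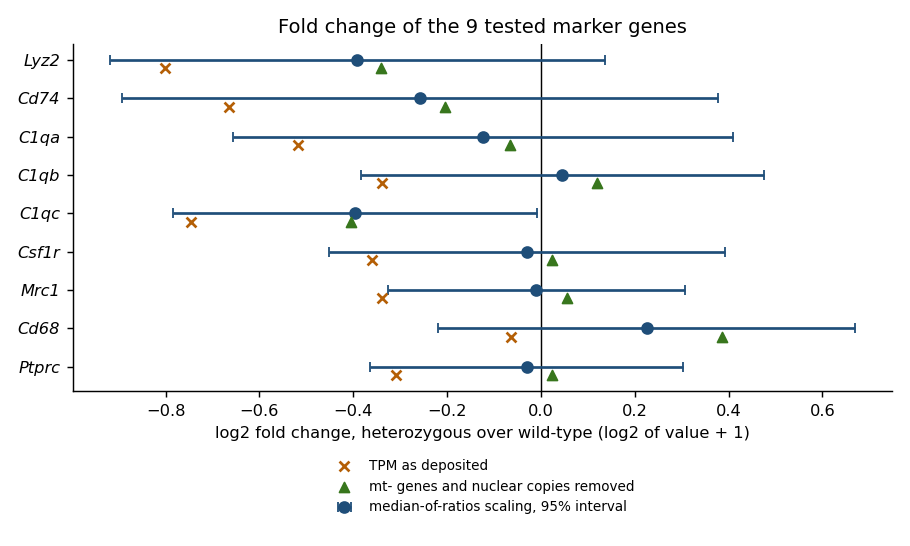
Log2 fold change, heterozygous over wild-type, of the 9 tested markers with 95% intervals from limma on scaled TPM + 1 (blue), and the same value from TPM as deposited (crosses) and with mt- genes and their nuclear copies removed (triangles). The intervals of 8 genes include 0 and that of *C1qc* ends at -0.01, and every cross lies to the left of the blue point of its gene.

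The levels of the C chain and the B chain were also compared within each heart, since a ratio of 2 genes in one library does not depend on any scaling. The ratio of *C1qc* to *C1qb* was 0.653 and 0.691 in wild-type against 0.473 and 0.448 in heterozygous hearts, or 0.672 ± 0.0265 and 0.460 ± 0.0181 (SD, n = 2). The genotypes differed by more than the spread within either, by -0.55 on the log2 scale, although 0.333 is the smallest two-sided p that exact permutation of 2 mice against 2 allows. The ratio of *C1qa* to *C1qb* was 1.51 and 1.31 against 1.13 and 1.35, and the genotypes overlapped. Of the 2 ratios to the B chain, only that of *C1qc* did not overlap between the genotypes. Levels of single genes, which are a different measure, did not overlap, in either direction, for 47% of all tested genes. The share for ratios of 2 genes was not computed.
Ratios between markers of different roles overlapped. *Mrc1* to *Adgre1*, 2 surface receptors of macrophages, stood at 9.56 and 11.1 against 11 and 7.61. The ratio of *Cd74* to *Ptprc* was 10.4 and 8.15 against 5.60 and 10.9. Its heterozygous hearts thus lay farther apart than the 2 genotype means.

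**Figure D3:**
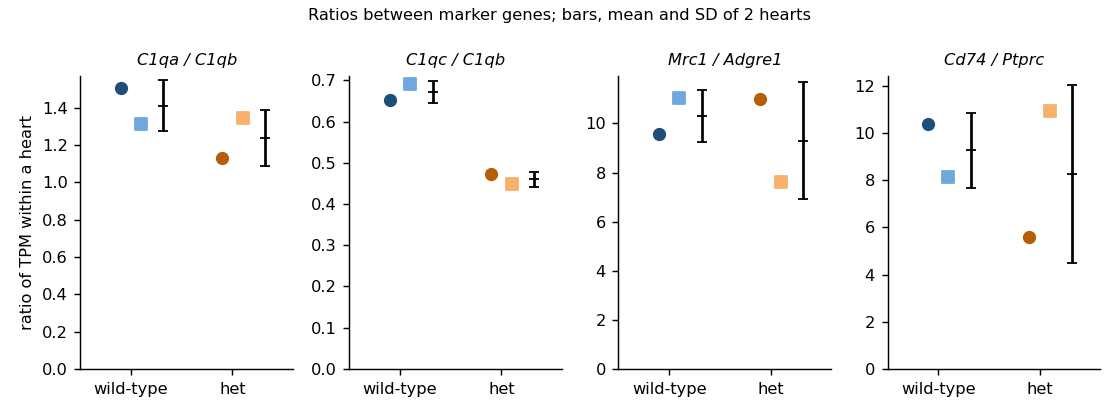
Ratio of the TPM of 2 marker genes within each heart, with axes from 0 (circles, replicate 1; squares, replicate 2; bars, mean and SD of the 2 hearts of a genotype). The ratio of *C1qc* to *C1qb* is the only one of the 4 without overlap, at 0.653 and 0.691 in wild-type and 0.473 and 0.448 in heterozygous hearts.

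*Cd74* (chromosome 18, 60803848 to 60812652) encodes the invariant chain, which accompanies MHC class II molecules to the compartment where they are loaded with peptide. It had 16.2 and 15.4 scaled TPM in wild-type against 9.61 and 17.7 in heterozygous hearts. One heterozygous heart was the lowest and the other the highest of the 4, and the log2 fold change was -0.26 (SE 0.27, 95% interval -0.89 to 0.38, limma adjusted p = 0.700), or 0.15 without heterozygous replicate 1. The class II chain genes that work with it had the same low heart for *H2-Aa*, at 8.55 and 10.4 against 5.30 and 10.7, and *H2-Eb1*, at 5.16 and 4.66 against 3.30 and 5.37. For *H2-Ab1* the values were 5.65 and 8.66 against 5.73 and 8.63, with both replicates 1 low. Of the 17 other genes listed for class II presentation, 5 could be tested and 0 were called by limma, none at an unadjusted p under 0.05. *H2-Ob*, a chain of a molecule that modulates peptide loading, had the smallest p, at 0.970 and 0.718 against 1.27 and 1.197 (0.28, limma adjusted p = 0.462). *Ciita*, the class II transactivator, lay between 0.111 and 0.171 scaled TPM.

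By their mean over the 4 hearts the 10 markers ranked in the order *Lyz2*, *Cd74*, *C1qa*, *C1qb*, *C1qc*, *Csf1r*, *Mrc1*, *Cd68*, *Ptprc* and *Adgre1*. The hearts of neighbours in this order overlapped, except between *C1qb* and *C1qc* (lowest heart 6.34, highest heart 5.25), between *Mrc1* and *Cd68* (2.81 and 2.47), and between *Ptprc* and *Adgre1* (1.56 and 0.395).

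The main pattern among the markers was a difference between the heterozygous hearts. Heterozygous replicate 1 was the lowest of the 4 hearts for 8 of the 10 genes, all but *Ptprc* and *Cd68*, and for 7 of the 9 tested, against 31.4% of all tested genes. Among the other genes listed for immune cells it was lowest for 27 of 54, and among those of other cell types of the heart for 28 of 56. The same library had the highest mt- share of the 4 (68.6%), the lowest share left for other genes (14.2%) and the fewest genes above 0 (19916, against 20136 to 20633), and their part in its low marker values was not tested. Heterozygous replicate 2 was the highest heart for 5 markers. Between the heterozygous hearts, the level in replicate 2 was 1.84 times that in replicate 1 for *Cd74*, 1.63 times for *C1qa* and 1.55 times for *Lyz2*, against 1.07 times for *Mrc1* and 0.940 times for *Ptprc*. The same ratio between the wild-type hearts was 0.950 for *Cd74*, 0.979 for *C1qa* and 1.11 for *Lyz2*. The summed scaled TPM of the 10 markers were 65.1 and 67.7 in wild-type against 47.0 and 70.0 in heterozygous hearts, which gives 66.4 ± 1.79 and 58.5 ± 16.3 (SD, n = 2). The SD of the heterozygous hearts exceeds the difference between the means, and without heterozygous replicate 1 the log2 difference of the sums, -0.21, became 0.07. Set against the endothelial list, the sum was 88.2 and 86.9 per 1000 TPM of that list in wild-type against 70.5 and 94.0 in heterozygous hearts. Most of the endothelial total came from *Fabp4*, lower in both heterozygous hearts, and *Egfl7*, higher in both. Per 1000 TPM of the cardiomyocyte list, the marker sum was 2.36 and 2.56 in wild-type against 2.06 and 2.54 in heterozygous hearts.
Heterozygous replicate 2 also stood apart in haemoglobin and red cell genes, with 2104 scaled TPM summed over 7 genes against 934.4, 981.0 and 961.5 in the other hearts. The neutrophil genes *S100a8* and *S100a9* were low in all hearts, at 0.610, 0.284, 0 and 0.791 and at 0.517, 0.118, 0.146 and 1.07 scaled TPM. The part of these differences in the marker levels was not tested. The methods describe removal of blood for embryonic hearts, and for adult hearts it is not given in the sources used here.

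**Figure D4:**
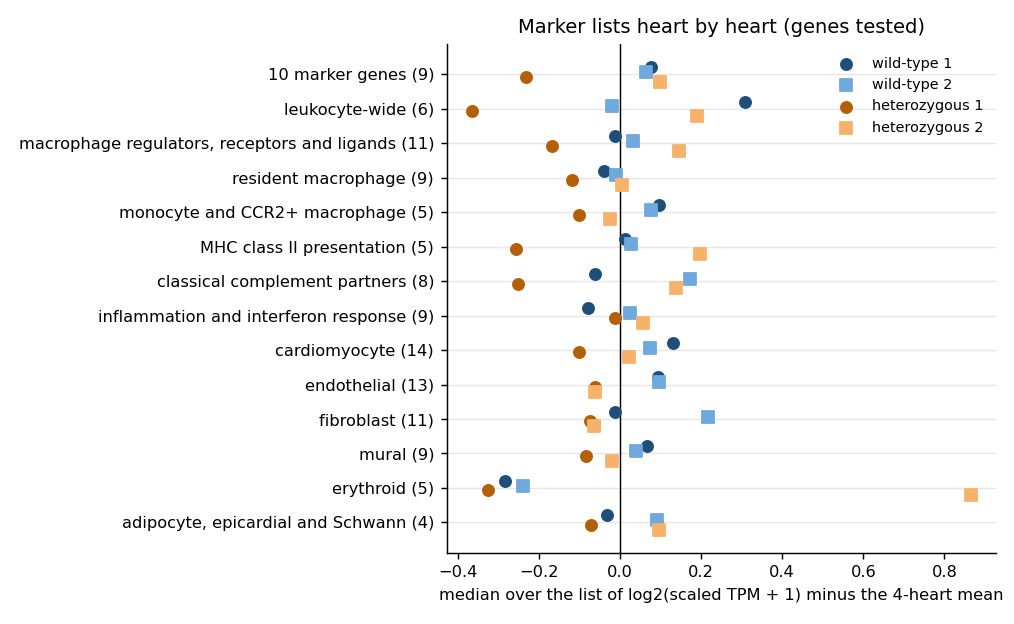
For the marker genes and each other list with at least 4 tested genes (number in brackets), the median over the genes of log2(scaled TPM + 1) minus the mean of the 4 hearts, by heart (circles, replicate 1; squares, replicate 2). Heterozygous replicate 1 is at -0.23 for the marker genes, the other 3 hearts lie between 0.06 and 0.10, and the erythroid list sets heterozygous replicate 2 apart at 0.87.

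The other genes of the immune programme were read from lists by role. Of 146 genes on 9 lists, 54 could be tested, and limma called 0 in either direction, with 4 higher and 5 lower at an unadjusted p under 0.05. The genotypes did not overlap for 9 genes in the higher and 12 in the lower direction (16.7% and 22.2% of those tested), against 23% and 24% of all tested genes. Their median log2 fold change was -0.07.
Of the leukocyte-wide genes 6 of 11 were tested, with a median of -0.31 that became 0.04 without heterozygous replicate 1. *Arhgdib*, a signalling regulator of leukocytes, had 4.13 and 3.57 scaled TPM against 2.46 and 2.99 (log2 fold change -0.38, limma adjusted p = 0.386). *Coro1a*, an actin-binding protein, overlapped at 2.53 and 1.96 against 1.30 and 2.64. *Ptpn6*, the phosphatase SHP-1 that restrains immune receptors, pointed the other way, at 1.15 and 1.18 against 2.13 and 1.86 (0.46, limma adjusted p = 0.334).
Of 25 regulators, receptors and ligands of macrophages 11 were tested, at a median of -0.08, and 1 was listed at 0 in every heart, *Marco*. *Csf1*, a ligand of the receptor encoded by *Csf1r*, had 18.4 and 11.4 scaled TPM against 9.32 and 14.5, with overlapping genotypes (-0.30, limma adjusted p = 0.668). *Il34*, the other ligand, was under the level for a test, between 0.792 and 1.06 scaled TPM in the 4 hearts. *Csf2ra*, a chain of the receptor of granulocyte-macrophage colony stimulating factor, had 11.1 and 13.4 against 9.88 and 9.84 (-0.28, limma adjusted p = 0.491). *Tyrobp*, the signalling adaptor of several myeloid receptors, had its lowest value of 3.30 in heterozygous replicate 1 and its highest of 6.03 in heterozygous replicate 2, as did *Cd74*, *C1qa* and *C1qb*. Other genes of the list did not, as *Mertk*, at 5.15 and 3.97 against 4.82 and 3.70, and *Axl*, at 11.62 and 9.14 against 11.57 and 10.04. Heterozygous replicate 1 was the lowest heart for 6 of the 11 tested genes of this list, against 31.4% of all tested genes.

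Among 16 resident macrophage genes 9 were tested, at a median of -0.01. *Stab1*, a scavenger receptor of macrophages and of some endothelium, had the largest difference of the immune lists, at 33.9 and 30.2 scaled TPM in wild-type against 144.6 and 53.3 in heterozygous hearts. Both heterozygous hearts were higher, but the gap between them was wider than that from the nearer one to the wild-type hearts, and the log2 fold change was 1.43 (SE 0.42, limma adjusted p = 0.336). It was 0.72 without heterozygous replicate 1 and 2.14 without heterozygous replicate 2. Exons of *Stab1* overlap those of *Nt5dc2* on the opposite strand, which had between 3.03 and 4.22 TPM. *Gas6*, a ligand that bridges dying cells to phagocytes, had 18.3 and 18.2 against 19.8 and 24.0 (0.25, limma adjusted p = 0.554). The markers *Folr2*, at 3.01 and 4.41 against 3.33 and 5.02, and *F13a1*, at 3.99 and 3.46 against 3.69 and 3.66, overlapped between genotypes. *Cd163*, at 1.49 and 1.21 against 0.950 and 1.03, and *Clec10a*, at 2.94 and 2.11 against 1.89 and 1.74, were lower in both heterozygous hearts. Among the 9 tested genes, genotypes did not overlap for 2 in the higher and 2 in the lower direction, against 23% and 24% of all tested genes.
Of 14 genes of monocytes and CCR2+ macrophages 5 were tested, at a median of -0.17. *Ccr2* itself, the receptor by which monocytes are drawn from blood, was too low for a test, at 0.296 and 0.339 scaled TPM in wild-type against 0.0609 and 0.143 in heterozygous hearts. *Fn1* (fibronectin) had 6.04 and 6.33 against 5.38 and 5.35 (-0.17, limma adjusted p = 0.604), and *Ace* (angiotensin converting enzyme) had 5.82 and 3.66 against 3.53 and 2.95 (-0.41, limma adjusted p = 0.448), both of them genes that other heart cells express as well.

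The partners of C1q in the classical pathway were read beside the C1q genes. Of 11 genes 8 were tested, at a median of -0.15 that became 0.08 without heterozygous replicate 1. *C1ra* and *C1s1*, the proteases bound to C1q, had 1.64 and 1.84 against 1.30 and 2.24 and 10.2 and 10.5 against 10.97 and 12.8 scaled TPM. *C1ra* overlapped between the genotypes, and *C1s1* was higher in both heterozygous hearts (0.18, limma adjusted p = 0.639). Their transcripts are 97.9% identical to *C1rb* over 2432 bases and 96.0% identical to *C1s2* over 2644 bases, which makes the division of reads uncertain. *C3*, the central complement component, had 5.32 and 6.39 against 2.90 and 4.82, without overlap (-0.52, unadjusted p = 0.0469, limma adjusted p = 0.400). *Calr*, a chaperone to which C1q can bind, had 29.2 and 37.8 against 25.3 and 21.4 (-0.50, limma adjusted p = 0.389).

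In the list of inflammation and interferon response 9 of 20 genes were tested, at a median of 0.04 that was -0.36 with TPM as deposited. *Oas2*, an interferon-induced sensor of double-stranded RNA, had the smallest unadjusted p of all the lists, 0.00272. It had 12.2 and 11.2 scaled TPM in wild-type against 19.8 and 19.4 in heterozygous hearts, a gap larger than the spread within either genotype, and a log2 fold change of 0.70 (SE 0.15, limma adjusted p = 0.279). It was 0.29 with TPM as deposited. Of other interferon-induced genes, *Bst2* had 12.7 and 13.9 against 11.5 and 16.4 (0.04, limma adjusted p = 0.941) and *Ifit3* had 4.14 and 3.94 against 3.35 and 4.05, both with overlapping genotypes. *Retnla*, a secreted marker of alternatively activated macrophages, had 2.74 and 3.58 against 1.18 and 1.67 (-0.78, limma adjusted p = 0.279).

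Signs of other leukocytes were near the lower end of the table. Of 19 lymphocyte genes only *Ighm*, the heavy chain of IgM, was tested, at 4.36 and 4.47 against 3.31 and 5.34 scaled TPM (-0.05, limma adjusted p = 0.932), and *Cd3e* of T cells was listed at 0 in 3 of the 4 hearts and reached 0.0244 in the other. None of 13 neutrophil and mast cell genes could be tested, and 6 were listed at 0 in every heart, among them *Ly6g* and *Mpo*.

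For the other cells of the heart, 56 of 64 genes on 6 lists were tested, and limma called 0, with 0 higher and 5 lower at an unadjusted p under 0.05. Genotypes did not overlap for 7 genes in the higher and 19 in the lower direction (12.5% and 33.9%, against 23% and 24% of all tested genes). Medians were -0.12 for cardiomyocyte, -0.14 for endothelial, -0.22 for fibroblast, -0.15 for mural and -0.06 for the adipocyte, epicardial and Schwann cell genes. The erythroid genes stood at 0.53, or -0.03 without heterozygous replicate 2. Of the 14 cardiomyocyte genes, genotypes did not overlap for 2 in the higher direction (*Mybpc3* and *Ldb3*) and for 5 in the lower. *Myh6* overlapped between the genotypes, at 9484 and 9120 against 9096 and 10473 scaled TPM (0.07, limma adjusted p = 0.908).
Among the named genes of these lists, *Myl2* (ventricular myosin light chain) had 7151 and 6538 against 4751 and 5691 scaled TPM and *Pln* (phospholamban) 426.1 and 416.9 against 262.8 and 344.7. *Fabp4* had 378.7 and 409.4 against 287.8 and 325.8, *Egfl7* 197.5 and 192.1 against 233.8 and 274.9, and *Cd36* 40.2 and 50.9 against 30.8 and 26.6. In fibroblast genes, *Dcn* had 29.8 and 44.8 against 20.6 and 28.8, *Lum* 2.08 and 2.81 against 1.498 and 1.72, and *Gsn* 85.9 and 111.8 against 71.1 and 87.7. *Rgs5* had 24.8 and 25.4 against 18.3 and 26.1, and *Acta2* 24.3 and 16.9 against 11.3 and 16.4. All of these had adjusted p values between 0.336 and 0.704 from limma, and most had their lowest value in heterozygous replicate 1, the heart that was low in the immune markers. *Hbb-bs* and *Hba-a2*, at 390.4 and 402.7 against 395.9 and 824.8 and at 327.7 and 350.9 against 355.0 and 768.4, were instead high in heterozygous replicate 2. The epicardial gene *Msln*, at 3.94 and 5.22 against 3.70 and 5.28, and *Upk3b*, at 1.42 and 1.03 against 0.487 and 1.30, overlapped between genotypes.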

How the data were processed

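Heart RNA of 4 mice was measured, 2 wild-type and 2 *Ctcf* heterozygous, grouped by their genotype labels. The authors purified poly(A) RNA, trimmed reads with Trim Galore, aligned them with STAR to mm10, quantified genes with RSEM and deposited TPM per gene, rounded to 2 decimals. The annotation release is not given in the sources used here. Read counts, on which the authors ran DESeq2, were not used here, so no count model was fitted and the depth is unknown.

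TPM were divided by median-of-ratios factors, taken over the genes above 0 in every library, and log2 of the value + 1 was fitted with limma (3.58.1; lmFit, eBayes with trend) in R (4.3.3). A mean TPM of 1 was required, which left 10036 genes. Coordinates are of GENCODE vM21 (mm10), which matched 55141 identifiers. Nuclear copies of mt- genes were found with BLAST+ (2.17.0) at 95% identity over 80% of the length.

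The 10 marker genes, the other lists and the tests were chosen with earlier results of these data known. The rule names the 10 markers and, from each other list, any called gene, the 2 tested genes with the highest mean TPM and the one with the smallest unadjusted p, and genes given beyond it were chosen after their values were seen. The lists were leukocyte-wide genes, macrophage regulators, resident macrophages, monocytes, MHC class II presentation, complement partners, lymphocytes, neutrophils and mast cells, inflammation and interferon response, and 6 lists for other cells of the heart. The fit was tested on simulated data. Alternatives were pseudocounts of 0.1 and 5, other filters, 3 other scalings, quantile normalization, eBayes without trend or robust, a replicate block and each library left out in turn. A few genes that this rule names and one promoter window are not reported here.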

Additional observations from a re-analysis of the deposited data

How the results depend on the processing

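With every alternative 0 of the markers were called, and their adjusted p values from limma stayed between 0.0742 and 0.999. *Lyz2* and *C1qc* were lower in heterozygous hearts in every fit, at -0.80 to -0.10 and at -0.76 to -0.22 on the log2 scale. Without scaling, the median over the markers moved from -0.03 to -0.36 and the log2 difference of their sum from -0.21 to -0.65, and with mt- genes removed they were -0.33 and -0.54. Over the fits that each lack 1 library the median ran from -0.25 to 0.15, the sum from -0.50 to 0.073, and the ratio of *C1qc* to *C1qb* from -0.59 to -0.51. Signs turned for *Cd68* (-0.063) and *C1qb* (-0.34) with TPM as deposited, for *C1qb* (-0.26) with mt- genes removed, and for *Ptprc* (0.023), *Csf1r* (0.024) and *Mrc1* (0.055) with their nuclear copies removed as well. They also turned with single libraries left out, over ranges of -0.12 to 0.055 for *Ptprc*, -0.25 to 0.19 for *Csf1r*, -0.0098 to 0.45 for *Cd68*, -0.058 to 0.030 for *Mrc1*, -0.45 to 0.19 for *C1qa*, -0.16 to 0.24 for *C1qb* and -0.67 to 0.15 for *Cd74*. Over all tested genes, 0 higher and 3 lower were called, against 2 and 11 without scaling, 2 and 12 with mt- genes removed, 2 higher with the copies removed too, 2 higher with robust eBayes, 0 lower with no filter, and, with a library left out, 6 and 17 (wild-type replicate 1), 8 and 25 (wild-type replicate 2), 12 and 4 (heterozygous replicate 1) and 4 and 3 (heterozygous replicate 2). With the replicate number as a block, 3 and 8 were called and no marker was. Same-numbered libraries are different mice, and their deviations correlated at 0.101. With a mean TPM of at least 5, 4 markers could be tested. The cause of these changes was not tested beyond what each scaling does by construction.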
